A study of Drosophila melanogaster with 16 samples.

Results

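The genes fit (female-specific independent of transformer), Yp1, Yp2 and Yp3 (the yolk protein genes) are described here in RNA from heads of Drosophila melanogaster. They are 4 of the 12286 genes in the deposited table, picked by their symbols because of the levels they had in these same libraries, so their levels are given as a description with no test. Their products are associated with the fat body, the insect tissue that stores fat and makes most blood proteins. The measurements are of whole heads, which hold fat body tissue around the brain among many other tissues, so none of the values belongs to fat body alone. In such bulk RNA, fewer cells of a type and less RNA per cell cannot be told apart.

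In the adult fly, yolk proteins are made by the female fat body and by the follicle cells of the ovary, secreted into the blood or directly onto the oocyte, and taken up by the oocyte through the receptor Yolkless. They are related in sequence to lipases but carry yolk rather than cut fat. The female form of the transcription factor Doublesex activates Yp1 and Yp2 in fat body and the male form represses them, and feeding, ecdysone and juvenile hormone raise yolk protein synthesis. The gene fit encodes a small secreted protein of the head fat body that is far more abundant in females, responds to protein feeding and curbs protein appetite. All 4 transcripts are therefore sex-biased, which makes the number of each sex in a sample matter.

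Flies were 10 days old, and 3 males and 3 females, 6 in all, were pooled for each sample. All flies carried a glial driver (Repo, in the GAL4 system) and a neuronal driver (Synaptobrevin, in the QF2 system). Control flies (genotype SybQF2, RepoGAL4/+) had no α-synuclein transgene. Glia flies (SybQF2, RepoGAL4/UAS-Syn) had human wild-type α-synuclein, a protein of nerve terminals that forms aggregates in Parkinson's disease, under the glial driver. Neuron flies (SybQF2, RepoGAL4, QUAS-Syn/+) had it under the neuronal driver, and flies of the both group (SybQF2, RepoGAL4, QUASSyn/UAS-Syn) had it under each. No transgene is driven by a fat body driver, and no label says how many insertion lines stand behind a genotype. The labels name 4 samples for every group, one from each of 4 batches, and number the replicates by batch. The 13 libraries used were control 1, 2 and 3, glia 1, 2 and 4, neuron 1, 2 and 3 and both 1, 2, 3 and 4, and the remaining 3 samples were not analysed here.

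Values are normalized counts, that is, reads in a gene after scaling each library, and spreads are SDs (n = 4 in the both group, n = 3 in every other). Libraries held 2808960 to 4767799 reads in genes. The head label was checked with the photoreceptor opsin gene ninaE (24122 to 84273), the pan-neuronal gene elav (557 to 1516) and the glial gene repo (102 to 270). Their lowest value was in glia 2 in each case. The lists of neuronal genes (14 tested) had summed levels of 27793 to 31026 in control, 16722 to 35910 in glia, 36828 to 43963 in neuron and 40851 to 44948 in both. None of the 14 was called in neuron or both against control. The human transgene was not analysed here.

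The gene fit (FBgn0038914) lies on chromosome 3R of the BDGP6 build from 21883924 to 21884454 on the minus strand, with 1 annotated transcript of 531 bases. It shares 67 exonic bases with CG31465 of the opposite strand, which was at 0 to 62.3 normalized counts, and 32 with the annotated RNA CR45046, which was not analysed here. Its closest separate neighbours were CG17819, 273 bases away, with 0 to 7.1 normalized counts, and P5CDh2, 3227 bases away, with 9.2 to 88.2. Yp1 (FBgn0004045, X from 10053811 to 10055498, plus strand) and Yp2 (FBgn0005391, X from 10050951 to 10052636, minus strand) are neighbours that point away from each other with 1174 bases between them. An antisense RNA, CR45601, covers 875 exonic bases of Yp1 and was not analysed here. Yp3 (FBgn0004047, X from 13759546 to 13761547, plus strand) lies apart from that pair, between Rtc1 and rdgB. The libraries were stranded, but the counting settings are not given in the sources used here, so reads of overlapping partners and of the 3 similar yolk protein genes may have been divided in a way that is uncertain.

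Expression of fit ranked in the order both, control, glia, neuron by group mean, from the highest to the lowest, and both and control overlapped. It had 761, 991 and 1031 normalized counts in control 1, 2 and 3. It had 699.6, 627 and 439 in glia 1, 2 and 4. In neuron 1, 2 and 3 it had 221, 387 and 349.7. Every neuron library was lower than every glia library, and every glia library was lower than every control library. In both 1, 2, 3 and 4 it had 1828, 779.8, 837 and 1462, so both 2 and both 3 lay within the range of control and both 1 and both 4 above it. The counts rest on 249 reads in neuron 1, the fewest, and 1515 in both 4, the most. The 95% exact Poisson interval of neuron 1 was 194 to 250.0 normalized counts, and that of the next lowest library, neuron 3, was 315 to 388. These intervals cover counting error only.

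**Figure D1:**
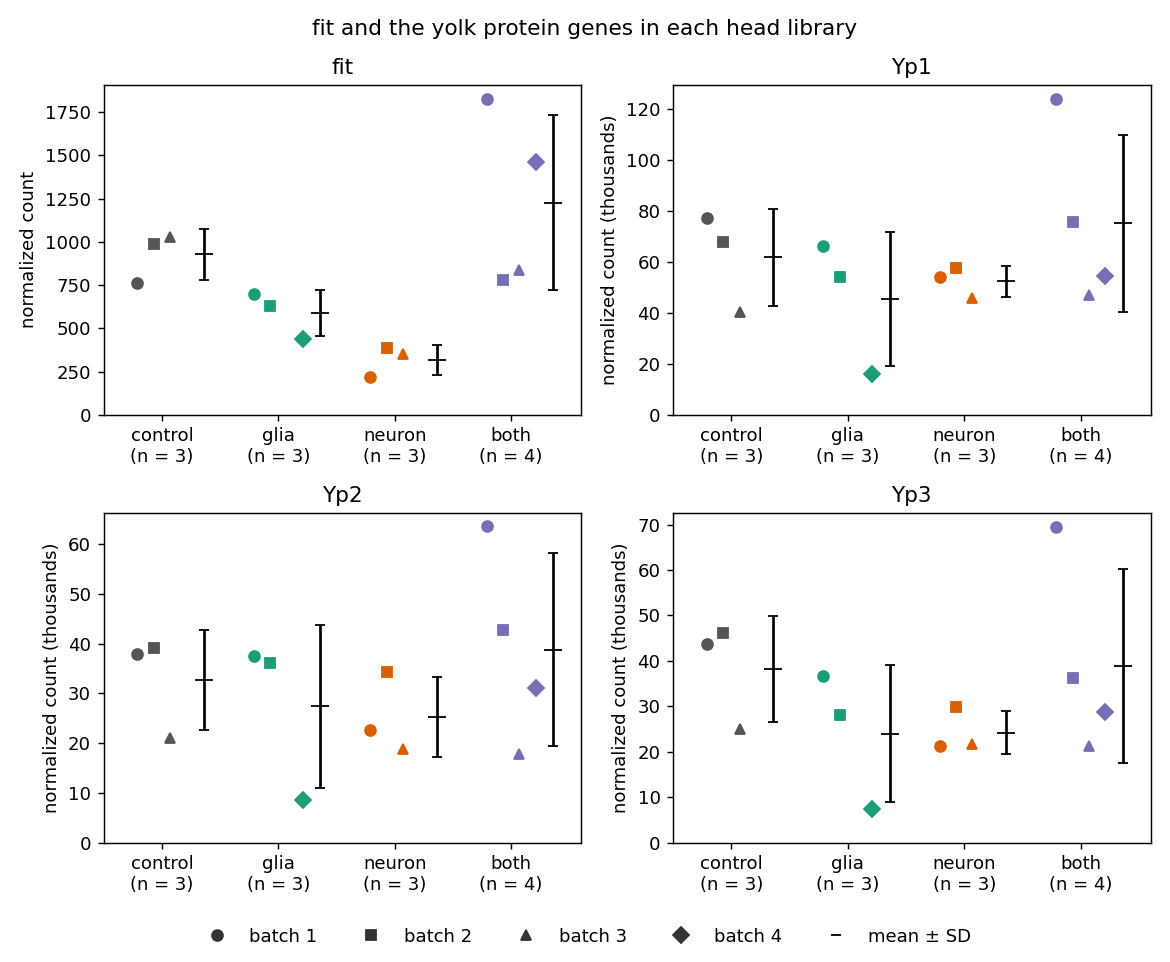
Normalized counts of fit, Yp1, Yp2 and Yp3 (divided by 1000 for the yolk protein genes) in each library by group, with marker shapes for batches and the mean ± SD beside each group. For fit the neuron libraries (221 to 387) lie under the glia libraries (439 to 699.6) and these under the control libraries (761 to 1031), while for each yolk protein gene the 4 groups overlap and glia 4 is the lowest point.

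The means of fit were 928 ± 146 in control, 589 ± 134 in the glia group, 319 ± 87.0 in neuron and 1227 ± 506 in both. On the log2(normalized count + 1) scale glia was 0.67 below control (a log2 difference of -0.67), neuron differed from control by -1.56 and both from control by 0.32. The both group differed from glia by 0.99 and from neuron by 1.89, and glia from neuron by 0.89. As a ratio of means, control had 2.91 times and both had 3.85 times the level of neuron. The groups did not overlap in 5 of the 6 pairs and overlapped for both and control. Of the 12181 genes tested, 11.1% had every neuron library lower than every control library, 13.1% lower than every glia library and 3.31% lower than every both-group library. Glia lay wholly lower than control for 5.11% and wholly lower than both for 10.1%. Because the gene was picked on these values, nothing is read from its own place among those shares.

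Only both and control overlapped for fit. For every other pair of groups the direction of a within-batch difference was therefore fixed in advance, and only its size is described. Neuron minus control was -1.78, -1.36 and -1.56 in batches 1, 2 and 3, and both minus neuron was 3.04, 1.01 and 1.26 in the same batches. Glia minus control could be taken in batches 1 and 2 only, and was -0.12 and -0.66. Both minus glia was 1.38, 0.31 and 1.73 in batches 1, 2 and 4. Both minus control changed direction with the batch, at 1.26 in batch 1 and -0.34 and -0.30 in batches 2 and 3. A batch holds at most 1 library of a group, so these differences have no replicates of their own.

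**Figure D2:**
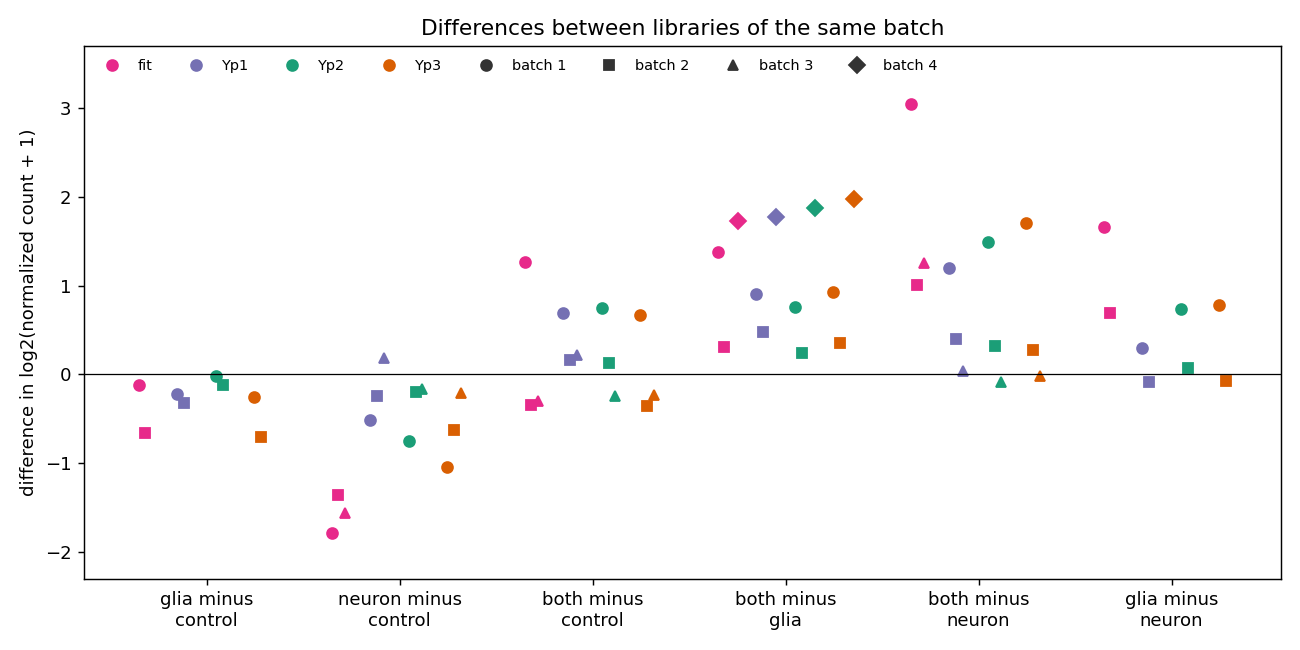
Differences in log2(normalized count + 1) between libraries of the same batch, for fit and the yolk protein genes (colours), with marker shapes for batches and 0 marked by a line. For fit, neuron minus control is between -1.78 and -1.36 and both minus neuron between 1.01 and 3.04, whereas both minus control lies on either side of 0.

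The yolk protein genes were among the most abundant transcripts of these heads, although only 3 of the 6 flies in a pool were female. Yp1 had 77020.0, 67755 and 40274 normalized counts in control 1, 2 and 3. It had 66217, 54069.5 and 15878 in glia 1, 2 and 4. It had 53889, 57433 and 45639 in neuron 1, 2 and 3. Control 3 was lower than the other control libraries, and glia 4 was the lowest library of all. In both 1, 2, 3 and 4 Yp1 had 123942, 75579, 46823 and 54269.7, and in both 1 it was the most abundant gene of the library. Its rank by normalized count was 11 in glia 4, its lowest. The groups overlapped in all 6 pairs.

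Group means of Yp1 were 61683 ± 19111 in control, 45388 ± 26268 in the glia group, 52320.2 ± 6051 in neuron and 75153 ± 34733 in both. The SD within the both group exceeded every difference between these means. On the log2 scale glia differed from control by -0.63, neuron by -0.19 and both by 0.23. Without glia 4 the glia difference was 0.01, and without both 1 or without control 3 the both difference was -0.04 or -0.05. Those directions therefore rest on single libraries. Within batches, neuron minus control was -0.52, -0.24 and 0.18, which again holds both signs.

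Yp2 had 37904, 39123 and 21116 normalized counts in control 1, 2 and 3, against 37575, 36043 and 8463 in glia 1, 2 and 4. It had 22547, 34197 and 18886 in neuron 1, 2 and 3, against 63597, 42746, 17808 and 31038 in both 1, 2, 3 and 4. Batch 2 libraries were close to one another in Yp2, from 34197 to 42746, and the groups overlapped in every pair. The means were 32714 ± 10063 in control, 27360.2 ± 16384 in the glia group, 25210.0 ± 7995 in neuron and 38797 ± 19419.8 in both. Against control the log2 differences were -0.48 for glia, -0.37 for neuron and 0.15 for both. The glia difference was 0.22 without glia 4, and the both difference was -0.14 without both 1 and -0.14 without control 3.

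Yp3 had 43684, 46092 and 24892 normalized counts in control 1, 2 and 3, against 36546, 28169.5 and 7265 in glia 1, 2 and 4. It had 21266, 29749.6 and 21573 in neuron 1, 2 and 3, against 69503, 36116, 21238 and 28664 in both 1, 2, 3 and 4. As for the other yolk protein genes, both 1 was the highest library, glia 4 the lowest, and the groups overlapped in every pair. The means were 38223 ± 11608 in control, 23994 ± 15081 in the glia group, 24196 ± 4812 in neuron and 38880.3 ± 21299.6 in both. Against control the log2 differences were -0.91 for glia, -0.63 for neuron and -0.07 for both. Without glia 4 the glia difference was -0.20. Within batches neuron minus control was -1.04, -0.63 and -0.21, lower in each of the 3 batches.

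Across the 13 libraries the level of each gene spanned a similar factor. The highest library exceeded the lowest 7.81 times for Yp1, 7.51 times for Yp2, 9.57 times for Yp3 and 8.28 times for fit. The extremes were not the same libraries, since the lowest for fit was neuron 1 and the lowest for each yolk protein gene was glia 4. Both 1 was the highest for all 4. Per kilobase of exon, which allows genes to be compared, Yp1 had means of 38289, 28174, 32477 and 46650.2 normalized counts in control, glia, neuron and both. On that scale Yp2 had 20219, 16909.9, 15581 and 23979, and Yp3 had 20462, 12845, 12953 and 20814, so Yp1 was the most abundant and Yp2 and Yp3 lay close together. The gene fit had 1747, 1108, 601 and 2310.2 per kilobase.

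Together the 3 yolk protein genes took 4.16%, 4.07% and 2.32% of reads in control 1, 2 and 3, against 3.45%, 3.39% and 0.901% in glia 1, 2 and 4. They took 2.64%, 3.21% and 2.40% in neuron 1, 2 and 3, against 6.57%, 4.11%, 2.42% and 3.08% in both 1, 2, 3 and 4. The group means were 3.52% ± 1.04 in control, 2.58% ± 1.46 in the glia group, 2.75% ± 0.418 in neuron and 4.05% ± 1.82 in both, and these groups overlapped. Glia 4 was set apart by yolk protein RNA but not by its depth, which at 3235216 reads lay inside the range of the other libraries.

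The yolk protein genes varied together from library to library, and fit varied with them less closely. Pearson's r of log2(normalized count + 1) over the 13 libraries was 0.95 for Yp1 with Yp2, 0.97 for Yp1 with Yp3 and 0.96 for Yp2 with Yp3. With fit it was 0.44 for Yp1, 0.49 for Yp2 and 0.56 for Yp3. These are descriptions of libraries that share a scaling and a pool of flies. They are given with no p.

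The ratio of Yp1 to Yp2, which lie side by side on the X chromosome, was 2.03, 1.73 and 1.91 in control 1, 2 and 3, against 1.76, 1.5 and 1.88 in glia 1, 2 and 4. It was 2.39, 1.68 and 2.42 in neuron 1, 2 and 3, against 1.95, 1.77, 2.63 and 1.75 in both 1, 2, 3 and 4. The ratio of Yp3 to Yp2 was 1.15 to 1.18 in control, a narrow range, against 0.782 to 0.973 in glia, 0.87 to 1.14 in neuron and 0.845 to 1.19 in both. Glia lay wholly below control in this ratio, neuron lay below control as well, and both overlapped control. The ratio of Yp1 to Yp3 was 1.47 to 1.76 in control and at least 1.78 in every other library, with means of 1.62 ± 0.147 in control, 1.97 ± 0.192 in the glia group, 2.19 ± 0.309 in neuron and 1.99 ± 0.19 in both. These ratios come from the values the genes were picked on and are not tested.

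**Figure D3:**
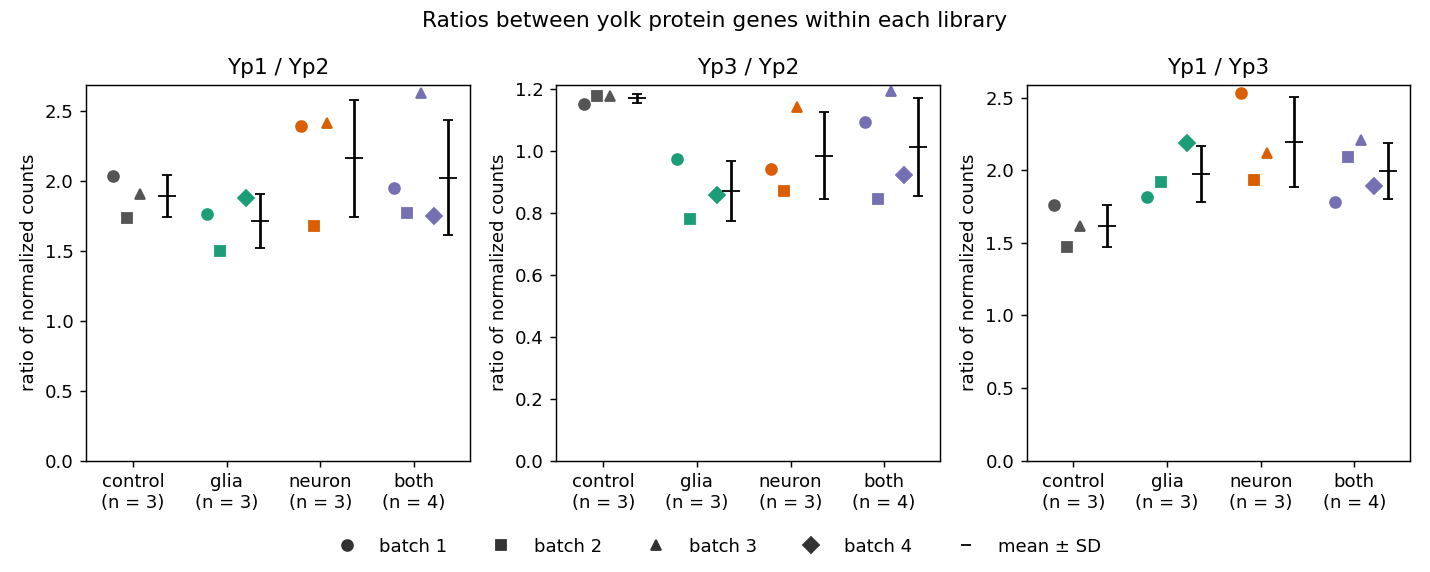
Ratios of normalized counts between yolk protein genes in each library by group, with marker shapes for batches and the mean ± SD beside each group. Control libraries keep Yp3 to Yp2 between 1.15 and 1.18 and have the lowest Yp1 to Yp3, at most 1.76, while Yp1 to Yp2 ranges from 1.5 in glia 2 to 2.63 in both 3.

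Set against the yolk protein genes, fit was lowest in neuron. Per 1000 normalized counts of the 3 yolk protein genes, fit had 4.80, 6.48 and 12.0 in control 1, 2 and 3, against 4.99, 5.30 and 13.9 in glia 1, 2 and 4. It had 2.26, 3.18 and 4.06 in neuron 1, 2 and 3, against 7.11, 5.05, 9.75 and 12.8 in both 1, 2, 3 and 4. Every neuron library lay below every other library, while control, glia and both overlapped. This ratio reuses the levels the genes were picked on, so it is not independent of the low fit counts in neuron and was not tested. The highest ratio was in glia 4, where yolk protein RNA was lowest and fit was the lowest of the glia group but higher than in any neuron library.

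Among the 8650 other genes with a mean of at least 20 normalized counts, those whose pattern over the 13 libraries was most like fit were l(3)72Dp (r = 0.90), Trp1 (0.90), Ndg (0.89), Snmp2 (0.85) and Cyp4aa1 (0.84). Ndg, which encodes the basement membrane protein nidogen, had 144 to 169.9 normalized counts in control, 85.6 to 129 in glia, 75.9 to 114.6 in neuron and 127 to 231 in both. Trp1, which encodes a protein of the secretory translocon, had 527 to 587 in control, 499.8 to 550.1 in glia, 456 to 484 in neuron and 527 to 609 in both. The range of Trp1 was thus far narrower than that of fit. None of the 5 overlapped with the 5 nearest to any yolk protein gene.

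Nearest to the mean of the yolk protein genes were Iris (r = 0.93), CG32537 (0.90), fon (0.88), Nplp2 (0.88) and CG34424 (0.88). Iris, which derives from a retroviral envelope gene, was among the nearest to each of the 3 yolk protein genes. It had its lowest value in glia 4 (177) and its highest in both 1 (499), as the yolk protein genes did. The clotting protein gene fon, a fat body product, had 603 in glia 4 and 1585 in both 1 and 788 to 1177 in the other libraries. Nplp2, a haemolymph peptide precursor gene, had 4171 in glia 4 and 14324 in both 1.

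Calls across all genes, used below for related genes, came from limma with Benjamini-Hochberg adjusted p under 0.05 on 12181 genes. In glia against control 91 genes (0.747%) were higher and 3 (0.0246%) lower, and in both against control 3 (0.0246%) were higher and 120 (0.985%) lower. In both against glia 379 (3.11%) were higher and 578 (4.75%) lower, and in glia against neuron 324 (2.66%) were higher and 71 (0.583%) lower. Neuron against control and both against neuron gave 0 calls in either direction (0%), with 1502 and 516 genes at an unadjusted p under 0.05, and limma voom on reads recovered from the values gave 0 in those comparisons as well. Without control 1, without both 1 or by limma voom, 0 genes were called in both against control, so every call in that comparison rests on those libraries, and with the batch block 1 gene was called there. These comparisons share libraries. The lists below were written with earlier results of these data known.

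The 4 other sex-biased genes listed for the head fat body are all known as male-biased. Of the 4, sxe2 was called higher in both against glia, and no call was made in the other 5 comparisons. The lipase-like gene sxe2 had 293 to 363 normalized counts in control, 189 to 422 in glia, 482 to 536 in neuron and 427 to 699 in both (log2 difference of both from glia 1.08, SE 0.24, adjusted p = 0.0183). The call was lost without glia 2 (adjusted p = 0.0755) and without both 3 (0.0522). Cyp4d21, a cytochrome P450 gene linked to male mating, had 467 to 1142 in control, 266 to 766 in glia, 514 to 772 in neuron and 566 to 1982 in both. Both 3 was its highest library, but not that of any other gene of this list, while both 3 was among the lowest for the yolk protein genes. In glia 4, the lowest library for the yolk protein genes, Cyp4d21 had 766, within the range of control. Takeout (symbol to), a gene of male courtship and feeding, had 1081 to 2309 in control, 1229.6 to 1987 in glia, 1938 to 2596 in neuron and 1009 to 3208 in both. The odorant-binding protein gene Obp99b had 41.6 to 149.8 in control, 218 to 432 in glia, 317 to 1252 in neuron and 68.3 to 533 in both. It was not called against control (limma adjusted p = 0.167 for neuron and 0.389 for glia). Cyp4d21, to and Obp99b are shown to complete the list.

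The genes of sex determination and dosage compensation showed no call. None of 10 tested sex determination genes was called in any of the 6 comparisons, and none of 5 tested dosage compensation genes was (limma). At an unadjusted p under 0.05 a comparison held 0 to 2 of the former and 0 to 3 of the latter, and limma voom called 0 of either. The gene dsx, which encodes the transcription factor that acts on Yp1 and Yp2, had 489 to 595 normalized counts in control, 331 to 518 in glia, 374 to 576 in neuron and 402 to 467 in both. These counts do not separate its male and female transcripts. The male-specific regulator gene msl-2 had 189.5 to 202 in control, 121 to 224 in glia, 210.4 to 233 in neuron and 192 to 219 in both, and had 121 in glia 2.

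The fat body list, which includes blood proteins and fat storage genes, had 1 call among its 25 tested genes. Lsd-1, the perilipin gene of lipid droplets, was called higher in both against control and in both against glia. It had 776 to 872 normalized counts in control, 774.9 to 1114 in glia, 1180.3 to 1388 in neuron and 1308 to 1529 in both. Its log2 difference of both from glia was 0.67 (SE 0.12, limma adjusted p = 0.00694). That from control was 0.81 (SE 0.12, adjusted p = 0.0229, or 0.0599 with the batch block), and it was lost without control 1 (adjusted p = 0.13), both 1 (0.0783), both 2 (0.0603) or both 3 (0.0673). Lsd-1 was high in neuron too, where fit was lowest. The median log2 difference of the list in both against glia was 0.44, beside -0.07 over all genes, and in neuron against control it was 0.08, beside -0.06.

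Among abundant blood proteins of fat body, apolpp had its extremes in the same libraries as the yolk protein genes. The lipid carrier gene apolpp, listed as Rfabg, had 45395 to 60069 normalized counts in control, 33013 to 44163 in glia, 39876 to 44896 in neuron and 39486 to 71125 in both, with its lowest value in glia 4 and its highest in both 1. Every glia and neuron library was lower than every control library for apolpp, with no call (limma adjusted p = 0.56 and 0.627). Over all genes tested, glia lay wholly lower than control for 5.11% and neuron for 11.1%. The storage protein gene Lsp1beta had 1235 to 1965 in control, 1055 to 3474 in glia, 408 to 3098 in neuron and 3287 to 15117 in both. Both 1 was again its highest library. In glia 4, however, Lsp1beta had 3474, above every control and neuron library, unlike apolpp and the yolk protein genes. Its log2 difference of both from control was 2.43 (SE 0.70, limma adjusted p = 0.111). The larval fat body gene Fbp1 was at 0 to 8.9. The summed fat body list was 89046 to 107316 in control, 64812 to 84799.5 in glia, 79553 to 95839.9 in neuron and 82976 to 150164.9 in both, with the lowest value in glia 4 and the highest in both 1. The part of fat body RNA as a whole in the levels of the yolk protein genes was not tested. With libraries centred on the median of the fat body list, the log2 differences from control were -0.45 in glia, -1.60 in neuron and 0.18 in both for fit, and -0.41, -0.23 and 0.09 for Yp1. They were -0.26, -0.40 and 0.01 for Yp2 and -0.70, -0.66 and -0.21 for Yp3. Apolpp, Lsp1beta and Fbp1 were chosen after their values were seen.

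The list of yolk uptake genes and lipoprotein relatives gave few calls. Of 9 tested genes of yolk uptake and lipoprotein relatives, the lipophorin receptor gene LpR2 was lower in both than in glia (467 to 528 against 667 to 804 normalized counts, log2 difference -0.55, SE 0.12, limma adjusted p = 0.0168), and no other call was made in the 6 comparisons. The yolk receptor gene yl had 35.8 to 238 in control, 11.9 to 2210.4 in glia, 0 to 38.2 in neuron and 0 to 9.7 in both. Both 1, the library with the most yolk protein RNA, had yl at 0. Glia 4, with the least, had yl at 11.9, its lowest in the glia group. Control 1, 2 and 3 had yl at 238, 102 and 35.8, falling as yolk protein RNA did.

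Of 23 tested genes of the neutral lipase family, to which yolk proteins are related, 4 were called in some comparison. CG6277 had 0 to 1.2 normalized counts in control, 11.9 to 26.5 in glia, 0 in every neuron library and 0 to 2.6 in both. It was higher in glia than in control (log2 difference 3.92, SE 0.59, limma adjusted p = 0.0090, or 0.0689 with the batch block) and lost that call without glia 2 (adjusted p = 0.0662). CG10116 had 4.0 to 9.9 in control, 43.8 to 62.9 in glia, 0 to 4.5 in neuron and 0 to 7.7 in both, and was lower in both than in glia (-4.42, SE 0.78, adjusted p = 0.00574). CG6277 was lower in that comparison too (-3.61, SE 0.56, adjusted p = 0.00289), and sxe2 and CG4582 were higher. Over all genes tested, 4.75% were lower there and 3.11% higher. The call of CG4582 was lost without glia 2 (adjusted p = 0.069), both 1 (0.0632) or both 3 (0.0559). In glia against neuron CG6277 (4.31, SE 0.59, adjusted p = 0.00182) and CG10116 (4.08, SE 0.84, adjusted p = 0.0197, or 0.0809 with the block) were higher. The latter call was lost without glia 2 (adjusted p = 0.0637) or neuron 1 (0.102). None of these lipase genes had the pattern of a yolk protein gene, which were lowest in glia 4.

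Hormone and nutrient genes moved in isolated cases. Of 21 tested ecdysone and juvenile hormone genes, Jheh3, an epoxide hydrolase gene of juvenile hormone breakdown, was higher in glia than in control (124 to 218 against 63.9 to 86.1 normalized counts, log2 difference 1.15, SE 0.23, limma adjusted p = 0.0421, or 0.175 with the batch block). That call was lost in 10 of the 13 repeats that left out 1 library, with adjusted p up to 0.152, and it remained without glia 4, neuron 2 or both 4. Jheh3 was lower in both than in glia (-1.01, SE 0.22, adjusted p = 0.0164) and higher in glia than in neuron (1.07, SE 0.23, adjusted p = 0.0248, or 0.0858 with the block), the latter lost without glia 1 (0.0561), glia 2 (0.0663), neuron 1 (0.127) or neuron 3 (0.0895). Of 18 tested insulin and nutrient genes, the amino acid transporter gene slif was lower in both than in glia (-1.17, SE 0.26, adjusted p = 0.0203) and higher in glia than in neuron (1.23, SE 0.28, adjusted p = 0.0341). The first call was lost without both 1 (adjusted p = 0.0615), and the second in 7 of the 13 repeats, with the largest adjusted p, 0.111, without neuron 1. The gene slif had 217 normalized counts in glia 2 and 47.3 to 119.6 elsewhere. No gene of either list was called in both against control or in neuron against control.

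RNA of organs outside the head differed between libraries and is set beside the yolk protein genes, since ovarian follicle cells and abdominal fat body also make yolk proteins. The summed eggshell list (10 genes tested) was 67.6 to 124 normalized counts in control, 23.9, 235 and 3001 in glia 4, 1 and 2, 10.6 to 38.2 in neuron and 6.8 to 14.5 in both. Vm26Aa, a vitelline membrane gene, was at 789 in glia 2, 67.6 in glia 1 and 0 in glia 4 and in every neuron and both-group library, and the oocyte gene osk was at 1598 in glia 2. Yolk protein RNA was in the middle of the range in glia 2 (3.39% of reads) and was highest in both 1, where the summed eggshell list was 10.2. Glia 4, with the least yolk protein RNA (0.901%), also had the lowest eggshell sum of the glia group. Within control and within neuron, the eggshell sum and yolk protein RNA ranked the libraries in the same order, and within both they did not. The part of ovarian RNA in the levels of the yolk protein genes was not tested. Of the eggshell genes, dec (defective chorion) and Cp15 were lower in both than in glia, and dec was higher in glia than in neuron. Over all genes tested the shares were 4.75% and 2.66%. The call of Cp15 was lost without glia 1 (limma adjusted p = 0.0761), glia 2 (0.134), both 1 (0.0806), both 2 (0.0763), both 3 (0.0763) or both 4 (0.059), and that of dec against neuron without neuron 1 (0.0609). None of 19 tested germline genes was called by limma in any comparison, with 0 to 16 at an unadjusted p under 0.05. Limma voom called 0 genes of the eggshell and germline lists.

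Male organ RNA was unevenly spread as well. The summed list of 23 male accessory gland genes was 2251 to 15627 normalized counts in control, 53.3 to 2203 in glia, 40.9 to 108 in neuron and 43.9 to 57.2 in both. In both against control, 19 of the 23 were lower, beside 0.985% of all genes tested, as were Peb and PebII of the ejaculatory bulb. With the batch block all of these calls were lost (limma adjusted p = 0.0622 for Peb and 0.0685 for PebII). They were also lost without control 1 or without both 1, and limma voom called 0 genes of these lists. Oenocytes, the abdominal cells that make cuticle hydrocarbons, express Cyp4g1, which had 3818 to 16569 in control, 4066 to 23062 in glia, 318 to 2652 in neuron and 14.9 to 413 in both. Of 7 tested oenocyte genes, 2 were lower in both than in control and 5 lower in both than in glia. Over all genes tested the shares were 0.985% and 4.75%. Of those 2, Cyp4g1 lost its call with the batch block (limma adjusted p = 0.0599) and v(2)k05816 kept it (0.0393). Each was lost without control 1 or without both 1, and that of Cyp4g1 also without both 2 or both 3. Of those 5, the calls of Fad2 and CG18609 (limma adjusted p = 0.0544) were lost with the batch block. Leaving out single libraries ended the calls of eloF and CG18609, with the largest adjusted p (0.111 and 0.143) without glia 2. Control 1 and glia 2 had the most Cyp4g1. Without control 1 and glia 2, which was chosen after seeing the data, fit differed from control by -0.87 in the glia group, -1.70 in neuron and 0.19 in both. The part of this RNA in the level of fit was not tested.

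**Figure D4:**
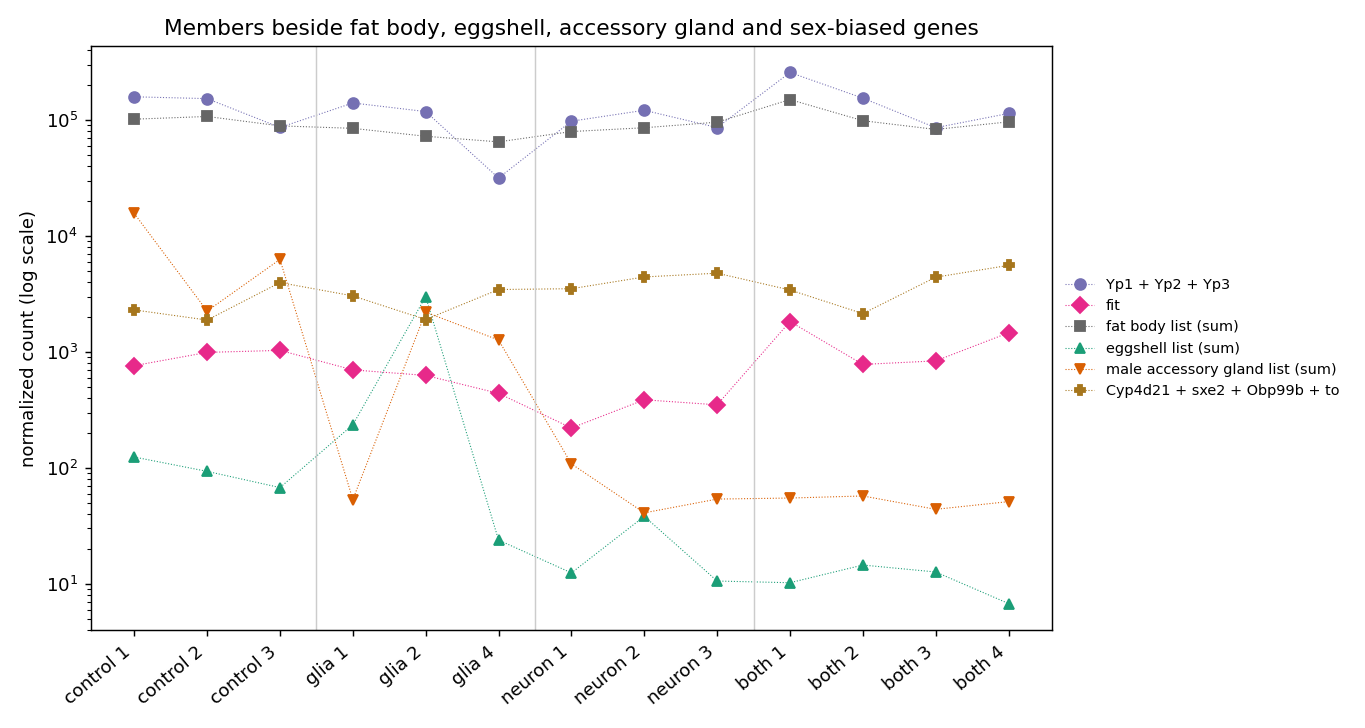
Normalized counts on a log scale in each of the 13 libraries for the summed yolk protein genes, fit, and the summed fat body, eggshell, male accessory gland and male-biased (Cyp4d21, sxe2, Obp99b and to) lists, with vertical lines between groups. Eggshell RNA peaks in glia 2 (3001) and accessory gland RNA in control 1 (15627), while summed yolk protein RNA is highest in both 1 and lowest in glia 4 and follows the fat body list at its extremes.

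Muscle, neuron, glia and blood cell lists were read for the same reason. None of 9 tested blood cell genes was called in any comparison by limma or limma voom, with 0 or 1 at an unadjusted p under 0.05. Over all genes tested, 0.985% were lower in both against control, and 3.11% were higher and 4.75% lower in both against glia. Of 16 tested muscle genes, Mlc2 was lower in both than in control, and Mlc1, Tm1 and flr were lower in both than in glia. Of 14 tested neuronal genes, nSyb, brp and para were higher in both than in glia, and of 10 tested glial genes Eaat2 was. Most of these calls were fragile. Of the 13 repeats that left out 1 library, Mlc2 was called in 5, Mlc1 in 7, Tm1 in 6, nSyb in 10, brp in 2, para in 2, Eaat2 in 8 and flr in 13. The largest adjusted p was 0.13 for Mlc2, 0.0957 for Mlc1, 0.105 for Tm1, 0.074 for nSyb, 0.106 for brp, 0.109 for para and 0.0893 for Eaat2. With the batch block Mlc2 (limma adjusted p = 0.0968), Mlc1 (0.0524), Tm1 (0.086), brp (0.0537), para (0.0608) and Eaat2 (0.0508) were lost, and nSyb (0.0481) and flr (0.0187) were not. With libraries centred on the median of the neuronal list, fit differed from control by -0.54 in glia, -2.01 in neuron and -0.21 in both, so the direction for both against control turned under that scaling and the others did not. On the same scaling Yp1 differed from control by -0.50 in glia, -0.64 in neuron and -0.30 in both.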

How the data were processed

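RNA from heads of pools of 6 flies was sequenced from 16 samples, of which 13 had columns in the deposited table, and 0 further columns of samples were left unused. Per the labels' protocols, ribosomal RNA was depleted and stranded libraries were sequenced as paired ends. Tools named in the submitters' processing notes are STAR and Salmon, featureCounts, DESeq2, FastQC and MultiQC, with the build BDGP6. Versions and settings are not given in the sources used here. The deposited values are a normalized read signal, which the column names of the file headers call adjusted counts. As the numbers themselves show, each value is 1 plus a read count times a factor fixed within a column, and 100% of recovered reads were whole within 0.01. Normalized counts are the deposited values minus 1. Reads in genes ran from 2808960 to 4767799 per library.

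Genes that reached a normalized count of 1 in 4 or more libraries were tested (12181, with 105 removed) by limma 3.58.1 in R 4.3.3 (limma-trend on log2(normalized count + 1)) with the 4 groups in 1 model, no batch term and 9 residual degrees of freedom (6 with the block), with Benjamini-Hochberg adjustment. Fold changes on that scale understate the change of low genes. The test was run on simulated data with independent counts and the same spread setting for all genes. That check does not bear on calls that rest on single libraries. The design had foreseen another test had the values been whole counts. Figures and descriptions used Python 3.11.15 with pandas 2.3.3. Poisson intervals are exact at 95%.

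The members and the 17 gene lists were chosen with earlier results of these data known, and the members' levels have no test. By rule, the text names the members, the 5 genes most like each (Pearson's r, mean of at least 20), up to 4 called genes with the smallest p per list, and the neighbouring genes. Other genes named, such as dsx, msl-2, yl, Vm26Aa, osk, apolpp, ninaE, elav and repo, were chosen after their values were seen. The labels give the replicate number as the batch, so numbers pair the libraries. Over 16 pairs of same-batch libraries, deviations from the group means correlated with a median of 0.07, and 5 pairs were above 0.1. Nothing says whether pools were reared separately, so p-values measure the spread between these pools. Gene IDs were matched to an Ensembl annotation of BDGP6 (12147 IDs found), and 5 symbols that the table holds as dates were replaced by their reference symbols. Alternatives were other scalings, pseudocounts and filters, the batch block, limma voom on recovered reads and leaving out libraries.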

Additional observations from a re-analysis of the deposited data

Results flagged for a closer look

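The group means of fit differed in opposite directions for the same transgene, according to whether the other transgene was present. With α-synuclein under the glial driver, fit differed by -0.67 on the log2 scale in glia against control and by 1.89 in both against neuron. With it under the neuronal driver, fit differed by -1.56 in neuron against control and by 0.99 in both against glia. Sizes varied with the batch, with glia minus control at -0.12 and -0.66 in batches 1 and 2. Both minus glia was 1.38, 0.31 and 1.73 in batches 1, 2 and 4. In each of the 4 comparisons of groups the libraries did not overlap. Over all genes tested, glia lay wholly lower than control for 5.11% and neuron wholly lower than control for 11.1%. Neuron lay wholly lower than both for 3.31% and glia wholly lower than both for 10.1%. The difference between the opposite directions was not tested, because fit was picked on these values. The yolk protein genes had overlapping groups in each of the same comparisons.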

How the results depend on the processing

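The count of called genes depended on single libraries. Leaving out 1 library at a time gave 30 to 131 calls in glia against control (94 with all), 0 to 855 in both against control (123), 427 to 1876 in both against glia (957), 139 to 1189 in glia against neuron (395) and 0 to 254 in neuron against control (0). The lowest counts came without glia 2 in glia against control and in both against glia, without control 1 or both 1 in both against control, and without neuron 1 in glia against neuron. Neuron against control gave 86 calls without control 2, 254 without control 3 and 44 without glia 1. Both against neuron gave 0 calls in all 22 alternatives. In glia against control a pseudocount of 0.1 gave 26 calls, a pseudocount of 5 gave 179 and a filter at 10 gave 25, and that filter gave 81 in both against control. With the replicate block, that is, batch as a term, calls numbered 29 in glia against control, 1 in both against control and 212 in glia against neuron. Limma voom gave 0 in both against control. Without control 1 and glia 2 the counts were 9 in glia against control, 0 in both against control, 342 in both against glia and 138 in glia against neuron. The cause of these shifts was not tested.

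For the members, centring on the neuronal list moved fit to -2.01 in neuron against control and to -0.21 in both against control, and moved neuron against control to -0.64 for Yp1 and -1.07 for Yp3. The differences of fit from control in glia and in neuron kept their direction in all 22 alternatives, as did those of Yp3. For fit, leaving out libraries or changing the pseudocount could not turn that direction, because these groups do not overlap with control. Yp3 in both against control changed direction in 6 of 22, and was 0.20 with the replicate block. The block changed no other direction of the members. The edgeR quasi-likelihood test was not run, because the deposited values are not counts, and limma voom, added after the data were seen, took its place. With 3 pools in most groups, glia 4 weighs most in the spread of the yolk protein genes in glia. Glia 1 and glia 2 differed less from each other, at 66217 and 54069.5 for Yp1.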
